A study of Mus musculus with 4 samples.

Results

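The Usher syndrome genes are a set of 9 genes chosen by name for this account: Myo7a, Ush1c, Ush1g, Cdh23, Pcdh15, Cib2, Adgrv1, Whrn and Clrn1. The rule was a match of the gene symbol in the count table and used no measured value. The set itself was chosen with earlier results of these data known. Of the 9, 8 were listed among 18471 genes, all 8 of these passed the filter on low counts, and Ush1g, which encodes the scaffold protein Sans, was not listed and is not analysed here. The data are RNA sequencing counts from retinas of mouse embryos at embryonic day 19. One group is labelled wild-type and the other Foxn3KO, with genotype Foxn3-/-, in which exon 3 of Foxn3, a gene for a forkhead transcription factor, is deleted (allele C57BL/6NJ-Foxn3em1(IMPC)Bay/Mmnc). No driver, agent or treatment is named in the labels of either group. Each group has 2 libraries, each from the retina of an individual genotyped embryo.

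Usher syndrome is inherited deafness with retinal degeneration. Its proteins form linked complexes: adhesion proteins with very long extracellular parts hold membranes together, PDZ-domain scaffolds bind their cytoplasmic tails, and a myosin motor ties the assembly to actin. In hair cells of the inner ear these complexes link stereocilia and carry tension to the transduction channel. In the retina they are found around the photoreceptor connecting cilium, at the calyceal processes and at synapses, and Myo7a also works in the pigment epithelium.

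Total counts were 22543531 to 29360129 per library. Wild-type replicate 1 stood apart in sex-linked transcripts, with 83073 counts of Xist against 9 to 19 in the other 3 libraries. Ddx3y, on the Y chromosome, had 0 counts in it against 1780 to 2317 in the others. This is the pattern of 1 female embryo and 3 males, so sex was not balanced between the groups. Values without wild-type replicate 1 are given where they matter. The targeted gene, Foxn3, was higher in the libraries labelled Foxn3KO (edgeR log2 fold change 0.54), and gene counts do not resolve exon 3. Directions below therefore rest on the labels. Summed markers of retinal progenitors (6186 to 6845 CPM, the count scaled to library size by edgeR) and photoreceptor precursors (1771 to 1891 CPM) were abundant in all 4 libraries, as the tissue label says.

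Of the 8 tested Usher genes, 4 passed an adjusted p of 0.05 between the groups, against 21.9% of all 17300 tested genes (edgeR quasi-likelihood test two-sided, p adjusted by Benjamini-Hochberg across every tested gene). Myo7a, Whrn and Cib2 rose in the libraries labelled Foxn3KO, where 12.3% of tested genes were called higher, and Adgrv1 fell, where 9.66% were called lower. The other 4, Ush1c, Cdh23, Pcdh15 and Clrn1, did not pass. Calls are more frequent among abundant genes: of those that averaged 10 CPM or more, 28.3% passed, and so did 4 of 5 Usher genes at that level. The groups did not overlap for 7 of the 8 genes, 4 higher and 3 lower in Foxn3KO. With 2 libraries a group this was also true of 60.4% of all tested genes, 29.9% higher and 30.5% lower. The median log2 fold change was 0.11 over the 8 Usher genes and -0.0047 over all tested genes. The changes were small, and the largest among the called genes was the 1.36-fold rise of Myo7a. DESeq2 called Myo7a, Whrn and Adgrv1, 3 of the 7 members to which it gave an adjusted p (none for Cdh23), against 16% of all genes with one. In bulk tissue, fewer cells of a type and less RNA per cell cannot be told apart.

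**Figure D1:**
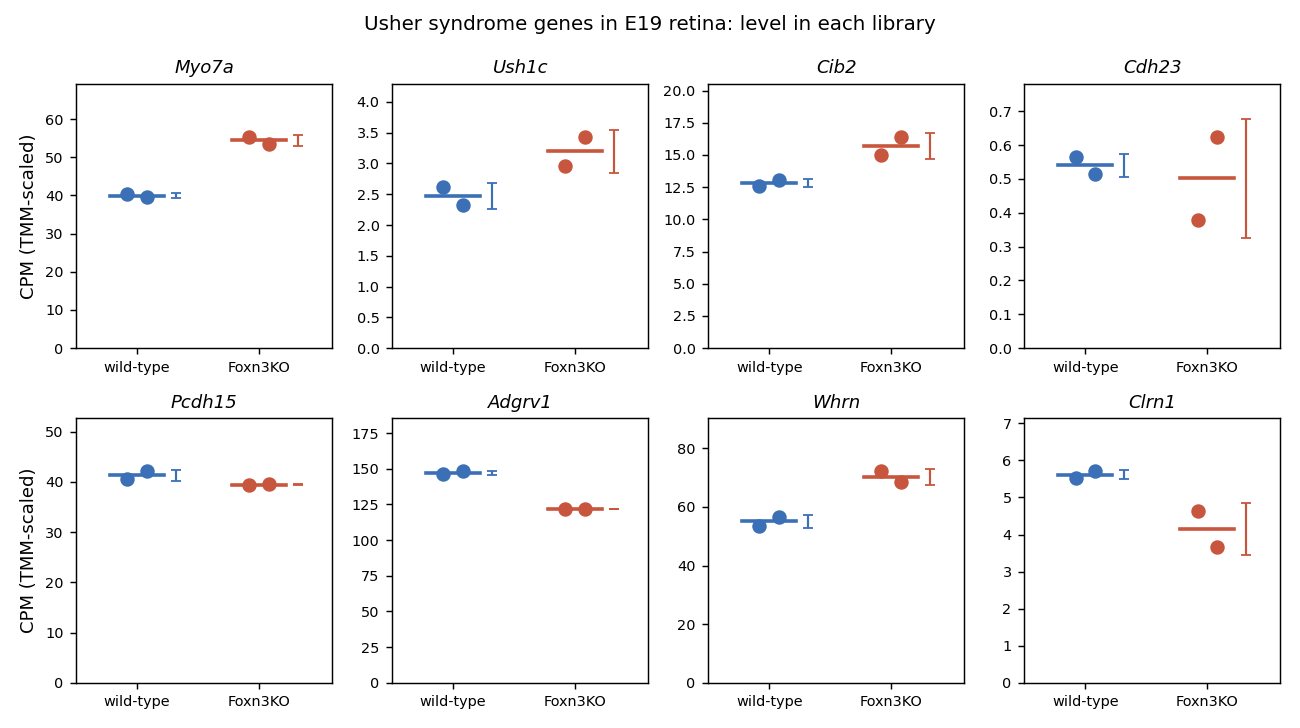
Level of each listed Usher gene in each library, in TMM-scaled CPM on axes that start at 0 (points: libraries; horizontal bar: group mean; whisker: SD, n = 2). Myo7a, Cib2 and Whrn sit higher and Adgrv1 lower in both Foxn3KO libraries, while the Foxn3KO values of Cdh23 lie on both sides of the wild-type values.

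The motor was the gene with the smallest p. Myo7a (ENSMUSG00000030761, chromosome 7) encodes myosin VIIA, an actin-based motor that moves the complexes in hair cells and carries melanosomes in the pigment epithelium. It had 1001 and 1073 counts in the wild-type libraries and 1614 and 1197 in the Foxn3KO libraries, which is 40.4 and 39.5 CPM against 55.4 and 53.4 CPM. Both Foxn3KO libraries were higher than both wild-type libraries, and the gap was several times the spread within either group. The means were 39.9 ± 0.617 and 54.4 ± 1.40 CPM (± SD, with n = 2 in each group). This was a rise of 36.4%, or 0.45 as log2 fold change with an SE of 0.059 (edgeR adjusted p = 2.12e-05). With 1 library left out in turn the log2 fold change was between 0.42 and 0.48.

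Markers of the pigment epithelium, a tissue next to the retina in which Myo7a is abundant, were measured beside this rise. Their summed level was 95.6 and 125 CPM in the wild-type libraries and 77.1 and 79.3 CPM in the Foxn3KO libraries, the opposite direction from Myo7a. Of 10 tested markers, 5 were called lower and none higher by edgeR, against 9.66% and 12.3% of all tested genes, with Pmel (-0.84), Rgr (-0.97) and Rlbp1 (-0.31 on the log2 scale) having the smallest p. Rlbp1 is also expressed by retinal glia, and with Pmel it made up most of the wild-type sum (means of 39.8 and 34.2 CPM). Mitf (0.26) and Best1 (0.15) were higher without being called, and the other tested markers had negative log2 fold changes. The part of pigment epithelium content in the Myo7a value was not tested. Without wild-type replicate 1, 7 of the markers were called, against 24.3% of all tested genes, and the Myo7a log2 fold change was 0.47.

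RefSeq lists 2 start sites for Myo7a in build GRCm38.p6. The window of the upstream one is printed because it is the promoter of the gene with the largest called change, with 250 bases before and 50 after the start, on the minus strand at chr7:98119444-98119743. Capitals mark a match to GTTGCC, core letters of the X-box that RFX factors bind, read here on the reverse strand.
Myo7a: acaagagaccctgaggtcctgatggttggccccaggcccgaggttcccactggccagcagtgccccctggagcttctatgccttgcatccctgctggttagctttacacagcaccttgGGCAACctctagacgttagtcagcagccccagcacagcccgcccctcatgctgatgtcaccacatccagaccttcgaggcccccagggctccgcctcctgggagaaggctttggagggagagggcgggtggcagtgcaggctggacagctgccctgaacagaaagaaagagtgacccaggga
The match begins 132 bases before the start, and the second Myo7a window holds none. GTTGCC on either strand was found in 12.5% of 32851 promoter windows of the same length.

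The scaffolds differed in how well they were measured. Whrn (ENSMUSG00000039137, chromosome 4) encodes whirlin, a PDZ scaffold of the Usher type 2 complex at the base of the photoreceptor cilium and of stereocilia. It had 1327 and 1537 counts in the wild-type libraries and 2100 and 1530 in the Foxn3KO libraries, or 53.5 and 56.6 CPM against 72.1 and 68.3 CPM. Both Foxn3KO values lay above both wild-type values once depth was taken into account. The mean of Whrn rose from 55.0 ± 2.16 CPM to 70.2 ± 2.69 CPM (± SD, with n = 2 in each group). Its log2 fold change was 0.35 with an SE of 0.056 (edgeR adjusted p = 0.000181). It ranged from 0.31 to 0.40 when a library was left out.

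The Whrn promoter is shown because Whrn is the scaffold that passed the test and its window holds matches to both motif types that were found among the called members. It lies on the minus strand at chr4:63495942-63496241 in GRCm38.p6 (RefSeq). The first capitals are a reverse-strand match to GTTGCC, 155 bases before the start. The second are a reverse-strand match to GACGC, letters bound by FOXN-type forkhead factors, 39 bases before the start.
Whrn: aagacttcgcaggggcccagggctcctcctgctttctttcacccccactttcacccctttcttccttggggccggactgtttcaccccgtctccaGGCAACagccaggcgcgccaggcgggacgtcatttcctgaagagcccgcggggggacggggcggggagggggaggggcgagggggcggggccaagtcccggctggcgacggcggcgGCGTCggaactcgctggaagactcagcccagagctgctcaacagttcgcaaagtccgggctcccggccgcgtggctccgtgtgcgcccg
GACGC on either strand was found in 27.2% of the 32851 windows. It holds a CG pair, and this share is not matched for CG content. The windows of Whrn, Cib2 and Adgrv1, which carry it, have 29, 20 and 14 CG pairs against a median of 7 over all windows. The motifs GTTGCC and GACGC do not overlap each other in letters, and a match is a description of the sequence, not of binding.

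Ush1c (ENSMUSG00000030838, chromosome 7) encodes harmonin, the PDZ scaffold at the centre of the Usher type 1 complex. It was sparse, with 65 and 63 counts in the wild-type libraries and 86 and 77 in the Foxn3KO libraries, or 2.62 and 2.32 against 2.95 and 3.44 CPM. The groups did not overlap, but the difference did not pass: the log2 fold change was 0.36 with a 95% interval of -0.08 to 0.81 (edgeR adjusted p = 0.248). That interval includes the change measured for Whrn as well as no change. An unclassified transcript annotated on the opposite strand, Gm9860, shares exonic sequence with Ush1c, and the use of strand in counting is not given in the sources used here.

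Cib2 (ENSMUSG00000037493, chromosome 9) encodes a small calcium- and integrin-binding protein that is part of the mechanotransduction apparatus of hair cells; its place among the Usher genes is debated. It had 312 and 354 counts in the wild-type libraries and 436 and 368 in the Foxn3KO libraries, or 12.6 and 13.0 against 15.0 and 16.4 CPM. Both Foxn3KO libraries were higher. The mean rose from 12.8 ± 0.317 CPM to 15.7 ± 1.03 CPM (± SD, with n = 2 in each group), and the log2 fold change was 0.29 with an SE of 0.098 (edgeR adjusted p = 0.0419). This call was close to the threshold: the adjusted p was 0.188 by DESeq2 and 0.0565 with total count scaling. Without wild-type replicate 1, Foxn3KO replicate 1 or Foxn3KO replicate 2 it was 0.0898, 0.0650 and 0.329 by edgeR, each with a positive log2 fold change, so the count of called Usher genes was then 3, against a background of 24.3%, 13.1% and 13% of tested genes. Without wild-type replicate 2 all 4 were still called, against 28.6%. Exons of Sh2d7, which was not listed, overlap those of Cib2 on the opposite strand in the GENCODE annotation.

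The promoter of Cib2 is printed for comparison with those of the other genes that rose, and lies on the minus strand at chr9:54560141-54560440 in GRCm38.p6 (RefSeq). Its GC content was 71.3%, against 70.0% for Whrn, 62.0% and 58.0% for the Myo7a windows and 63.3% for Adgrv1, which fell. The members that did not pass had 60.7% (Ush1c), 54.0% (Cdh23), 50.7% (Pcdh15) and 48.7% (Clrn1). The median over all windows was 52.7%. Capitals mark GACGC, which begins 43 bases after the start.
Cib2: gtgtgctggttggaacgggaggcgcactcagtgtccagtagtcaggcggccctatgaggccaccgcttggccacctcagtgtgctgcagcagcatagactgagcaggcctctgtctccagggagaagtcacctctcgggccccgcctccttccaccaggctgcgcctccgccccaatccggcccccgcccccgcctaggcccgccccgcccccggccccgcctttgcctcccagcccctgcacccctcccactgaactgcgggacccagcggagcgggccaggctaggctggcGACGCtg

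Of the 3 adhesion proteins measured, Adgrv1 passed the test. Adgrv1 (ENSMUSG00000069170, chromosome 13) encodes a very large adhesion G protein-coupled receptor that binds whirlin in the Usher type 2 complex and forms the ankle links of stereocilia. It had the most counts of the 8 genes, 3628 and 4027 in the wild-type libraries and 3543 and 2730 in the Foxn3KO libraries. Scaled to depth these were 146 and 148 against 122 and 122 CPM. The Foxn3KO libraries were nearly equal to each other and both lay below wild-type. The mean fell from 147 ± 1.36 CPM to 122 ± 0.161 CPM (± SD, with n = 2 in each group). The log2 fold change was -0.27 with an SE of 0.045 (edgeR adjusted p = 0.000214), and it lay between -0.28 and -0.26 with a library left out. In percent, the change was -17.3%.

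The promoter of the 1 Usher gene that fell is given next to those that rose, on the minus strand at chr13:81633095-81633394 in GRCm38.p6 (RefSeq). Capitals mark GACGC, which begins 226 bases before the start. No GTTGCC was found in this window.
Adgrv1: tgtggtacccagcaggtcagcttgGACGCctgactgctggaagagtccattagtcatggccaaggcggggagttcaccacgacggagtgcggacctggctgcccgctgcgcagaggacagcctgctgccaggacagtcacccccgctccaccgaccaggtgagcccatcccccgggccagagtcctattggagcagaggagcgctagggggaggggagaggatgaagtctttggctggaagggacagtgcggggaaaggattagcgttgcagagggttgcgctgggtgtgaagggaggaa
All 8 listed genes had a RefSeq window. GACGC was found in Whrn and Cib2, which rose, and in Adgrv1, which fell. GTTGCC was found in Myo7a and Whrn among the 8. The forkhead letters GTAAACA were in none of the members' windows and in 3.65% of all windows.

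Pcdh15 (ENSMUSG00000052613, chromosome 10) encodes protocadherin-15, the lower part of the tip link between stereocilia. It had 1005 and 1144 counts in the wild-type libraries and 1146 and 885 in the Foxn3KO libraries, or 40.5 and 42.1 against 39.4 and 39.5 CPM. The nearest values of the groups were closer to each other than the wild-type libraries were. The log2 fold change was -0.07 with a 95% interval of -0.20 to 0.06 (edgeR adjusted p = 0.487). This interval does not reach the values measured for Myo7a, Whrn or Adgrv1, although Pcdh15 had fewer counts in all (4180) than each of them.

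Cdh23 (ENSMUSG00000012819, chromosome 10) encodes cadherin-23, the upper part of the tip link and the partner of protocadherin-15. It had 14 and 14 counts in the wild-type libraries and 11 and 14 in the Foxn3KO libraries. These are 0.565 and 0.515 against 0.378 and 0.625 CPM, and the groups overlap. The log2 fold change was -0.15 with an interval of -1.17 to 0.88 (edgeR adjusted p = 0.871), so a change of the size seen in Myo7a was not detectable at this depth. The tip-link partners thus differed widely in level: per length, the authors' FPKM was 1.70 and 1.77 for Pcdh15 and 0.0332 and 0.0303 for Cdh23 in the wild-type libraries.

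Clrn1 (ENSMUSG00000043850, chromosome 3), the Usher type 3 gene, encodes clarin-1, a small protein with several membrane-spanning segments. It had 137 and 155 counts in the wild-type libraries and 135 and 82 in the Foxn3KO libraries, or 5.52 and 5.70 against 4.64 and 3.66 CPM. Both Foxn3KO libraries were lower, and they differed from each other more than the wild-type libraries did. The log2 fold change was -0.42 with an unadjusted 95% interval of -0.78 to -0.07. It did not pass after adjustment (edgeR adjusted p = 0.0832; DESeq2 adjusted p = 0.280), and ranged from -0.62 to -0.27 with a library left out.

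**Figure D2:**
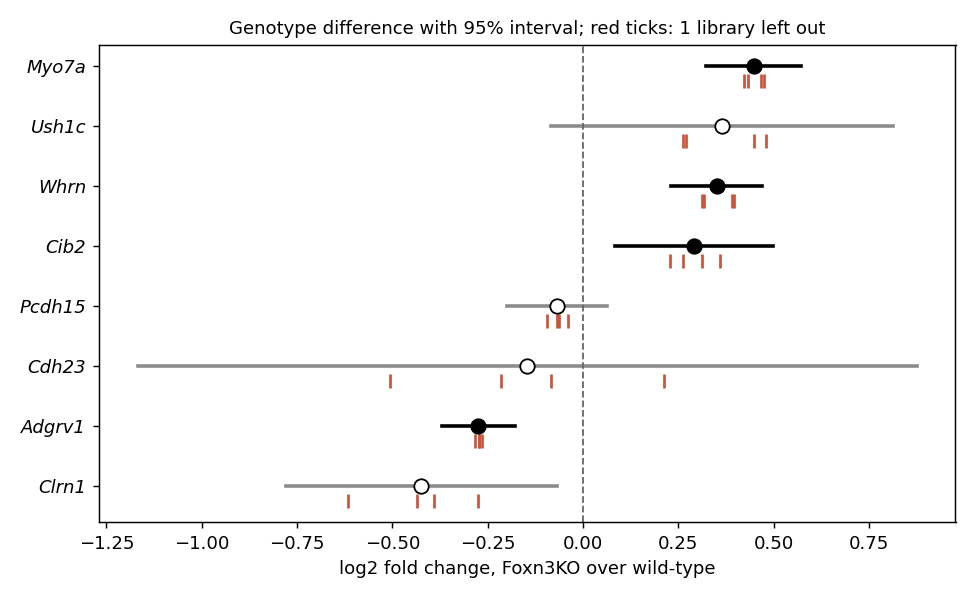
Log2 fold change of each listed Usher gene, Foxn3KO over wild-type, with its 95% interval from the edgeR fit (filled points: adjusted p under 0.05). Red ticks give the value with 1 of the 4 libraries left out: those of Myo7a span 0.42 to 0.48, and those of Cdh23 span -0.51 to 0.21.

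The precision of these values followed the depth. The SE of the log2 fold change was 0.045 for Adgrv1 with 13928 counts in all, 0.059 for Myo7a with 4885, 0.21 for Ush1c with 291 and 0.48 for Cdh23 with 53. The authors' deposited table gives the same direction for all 8 genes. In the authors' deposited table, adjusted p-values were 4.10e-06 for Myo7a, 6.14e-05 for Adgrv1, 0.000135 for Whrn and 0.188 for Cib2, and no adjusted value is given for Cdh23. DESeq2 run here on the same counts gave the same adjusted p-values, so this likeness is not a separate result.

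Ratios of counts within a library do not depend on the scaling between libraries. The pairs below were chosen after the values were seen and are given without a test. The ratio of Whrn to Adgrv1 counts, the scaffold and the receptor of the type 2 complex, was 0.366 and 0.382 in the wild-type libraries and 0.593 and 0.560 in the Foxn3KO libraries. The ratio of Myo7a to Pcdh15 counts was 0.996 and 0.938 against 1.41 and 1.35. In contrast, Myo7a to Whrn was 0.754 and 0.698 against 0.769 and 0.782, with a narrower gap between the groups.

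Levels between genes were compared per length, with the authors' FPKM. In the wild-type libraries the order was Cib2 (8.74 and 9.06), Whrn (7.26 and 7.69), Adgrv1 (5.85 and 5.94), Myo7a (4.53 and 4.44), Pcdh15, Clrn1 (1.43 and 1.47), Ush1c (0.659 and 0.584) and Cdh23. Neighbours in this order did not overlap in either group. In the Foxn3KO libraries Myo7a (6.23 and 6.01) and Adgrv1 (4.88 and 4.89) had changed places, and the other 6 genes kept their rank. Per length, the Whrn to Adgrv1 ratio was 1.24 and 1.29 in wild-type and 2.01 and 1.90 in Foxn3KO.

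**Figure D3:**
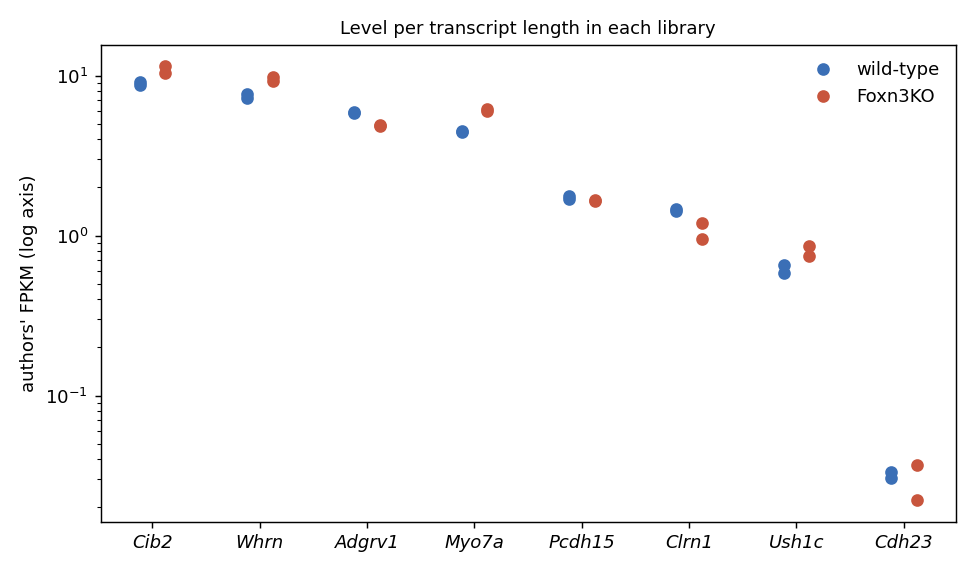
The authors' FPKM of each listed Usher gene in each library on a log axis, ordered by the mean over all libraries. Adgrv1 lies above Myo7a in the wild-type libraries (5.85 and 5.94 against 4.53 and 4.44) and below it in the Foxn3KO libraries (4.88 and 4.89 against 6.23 and 6.01), and Cdh23 lies far below the rest.

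The FPKM summed over the 8 genes was 30.2 and 31.0 in the wild-type libraries and 34.9 and 35.1 in the Foxn3KO libraries. The summed CPM of the same genes, which takes no account of length, was 302 and 308 against 312 and 307, and the groups overlapped. Adgrv1 made up 19.4% and 19.2% of the FPKM sum in wild-type and 14.0% and 13.9% in Foxn3KO. Myo7a made up 15.0% and 14.3% against 17.8% and 17.1%. Compared with all tested genes, Cib2 was at the 66.6th percentile of mean FPKM, Whrn at the 62.4th and Cdh23 at the 0.0405th.

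The genes whose profile over the 4 libraries was nearest to Myo7a, by Euclidean distance of centred log2 CPM among 14924 genes that averaged 1 CPM or more, were Enkd1 (distance 0.0129), Ruvbl1 (0.022) and Tmem138 (0.0226). Their log2 fold changes were 0.44, 0.46 and 0.47. Nearest to Whrn were Psmd9 (0.0169), Togaram1 (0.0199) and Itm2c (0.021), with log2 fold changes of 0.35, 0.36 and 0.34. All 6 were called higher by edgeR, and the likeness rests on 4 libraries only. The genes were picked for nearness over these same libraries. Their like log2 fold changes, and largely their calls, follow from that choice and are not a separate result.

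Partner genes were then counted, from lists that hold none of the 8 genes. The connecting cilium list holds genes of the photoreceptor ciliary gate and axoneme, beside which whirlin and Adgrv1 are located. Of its 20 members, all tested, 13 were called higher and 1 lower by edgeR, against 12.3% and 9.66% of all tested genes. In either direction 21.9% of all tested genes were called, and 28.3% of those that averaged 10 CPM or more, as most members did. The median log2 fold change of the list was 0.27. Rpgr, a regulator of ciliary traffic mutated in retinitis pigmentosa, rose from 63.4 ± 0.727 to 139.5 ± 2.08 CPM (log2 fold change 1.14, edgeR adjusted p = 4.32e-12). The ciliary gate gene Nphp4 had a log2 fold change of 0.69 (adjusted p by edgeR 6.86e-07). The 1 member called lower, named after its values were seen, was Rpgrip1 (-0.21, edgeR adjusted p = 0.00172), which anchors Rpgr at the connecting cilium.

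The hair bundle list holds other genes of stereocilia and of the transduction channel. Of its 28 entries, 20 were listed and 16 were tested. Here 2 of 16 were called, both lower, with a median of -0.09, a share below the 21.9% of all tested genes called and near the 9.66% called lower: Triobp, which bundles actin in stereocilia rootlets (-0.23, edgeR adjusted p = 0.0024), and Vezt, a junction protein that binds myosin VIIA (-0.19, edgeR adjusted p = 0.0112). Without wild-type replicate 1, 4 of 17 were called, against 24.3% of all tested genes. Without Foxn3KO replicate 1, 1 of 16 was called, against 13.1%. Without Foxn3KO replicate 2 none of 17 was called by edgeR, against 13%, with 2 at an unadjusted p under 0.05. DESeq2 on all libraries called 2. Pdzd7, a scaffold of the Usher type 2 complex, was named for that role and had a log2 fold change of -0.28 (edgeR adjusted p = 0.403) from 4.01 ± 0.830 CPM; without wild-type replicate 1 the log2 fold change was -0.04.

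The brush border list holds the microvillar adhesion complex, which is also built on harmonin. Of 10 entries, 5 were listed and tested, and 1 was called, a share close to the 21.9% of all tested genes: Ezr, the actin-membrane linker ezrin (log2 fold change 0.31, edgeR adjusted p = 0.00305). The cadherin members Cdhr2 and Cdhr5 and the motor Myo7b, a paralog of Myo7a, were not listed.

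**Figure D4:**
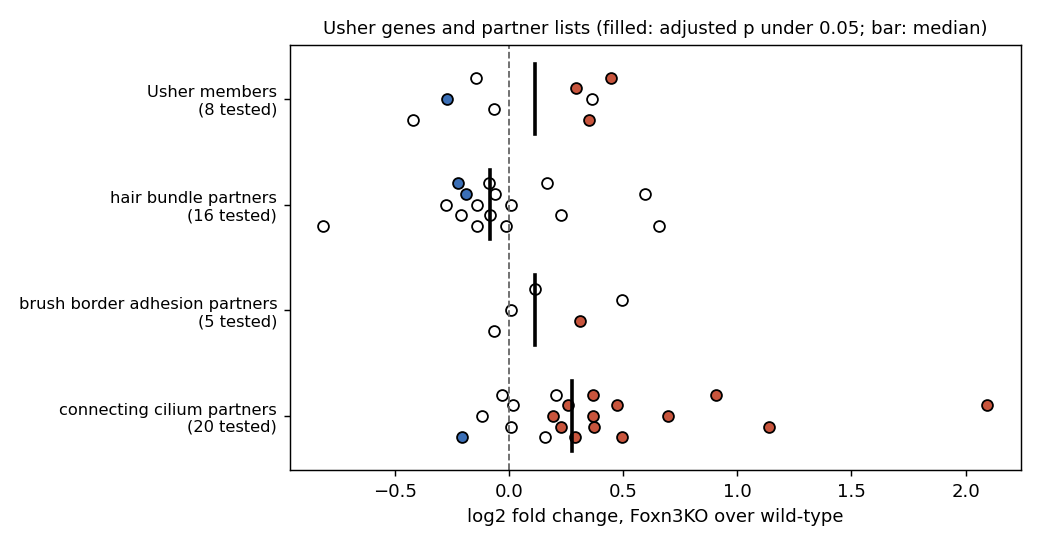
Log2 fold change, Foxn3KO over wild-type, of each tested gene among the Usher members and 3 partner lists (filled: adjusted p under 0.05, red higher and blue lower; vertical bar: median; vertical position within a list has no meaning). The connecting cilium list lies mostly right of 0 with a median of 0.27, and the hair bundle list has a median of -0.09.

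Marker genes of cell types were counted as well, beside 12.3% of all tested genes called higher and 9.66% called lower. Lens markers summed to 5.24 and 47.4 CPM in the wild-type libraries and 222 and 221 CPM in the Foxn3KO libraries, with 7 of 7 tested called higher and Lim2 not listed. Motile cilia genes summed to 105 and 97.5 against 798 and 786 CPM, with 11 of 11 called higher, among them the ciliogenesis regulator Foxj1 (log2 fold change 4.45). Of 14 photoreceptor precursor markers, 8 were called higher and 1 lower. Photoreceptor markers included Sag (0.99), Gngt2 (0.46) and Pde6b (0.84 on the log2 scale), while Crx, an early photoreceptor regulator, had 0.06 (edgeR adjusted p = 0.354). The part of these shifts in the Usher gene values was not tested.

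The other markers are set beside the 21.9% of all tested genes that were called, and the ganglion cell, hair cell and vessel lists lie near that share. Of these markers, 3 progenitor genes were called lower and 1 higher of 10, and 1 ganglion cell gene lower and 1 higher of 8. Of 10 amacrine and horizontal cell genes, 4 were called lower. The hair cell list, the cell type in which Usher proteins are best known, had 5 of 8 entries tested and 1 called, Calb2, which retinal neurons also express. The other tested entries, none called, were Myo6 and Pou4f3 (wild-type means of 26.6 and 24.5 CPM) and the sparser Gfi1 and Otof (1.91 and 0.657 CPM). Atoh1, Slc26a5 and Pvalb were not listed. The vessel and mesenchyme list had 1 of 6 called, higher. Of 7 microglia genes, none was called by edgeR or DESeq2 and 1 had an unadjusted p under 0.05 by edgeR.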

How the data were processed

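Retinal RNA of 4 libraries, 2 a group, was analysed from 1 table for the whole series. Per the labels, library preparation kept strand, and its adaptors carry unique molecular identifiers. The read counts per gene were deposited without normalization. FPKM values are the authors', with gene lengths not given, and served to compare levels between genes. The table's mean signal, log2 fold changes, their standard error score, p-values and adjusted p-values are those the authors deposited; the log2 values were quoted for their direction only. The submitters' processing notes name DESeq2 and mm39; aligner, counter, annotation, use of strand and of molecular identifiers are not given in the sources used here.

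Of 18472 rows, a repeated identifier was dropped; filterByExpr left 17300 genes. Counts were scaled with TMM and compared by the quasi-likelihood test of edgeR 4.0.16 (R 4.3.3; glmQLFit in its edgeR 4 form, genotype as the only term). P-values were adjusted by Benjamini-Hochberg across every tested gene, and 0.05 was the threshold. SEs and 95% intervals came from the fold change, the F statistic and its degrees of freedom; intervals are not adjusted for multiple tests. The fit was tested on simulated data. A gene at 3 counts lies at 0.103 to 0.134 CPM, counting error only. Alternatives were DESeq2 1.42.0, limma-voom (3.58.1), other scalings and filters, the earlier edgeR fit, the replicate number as a block and leaving out each library; the fits that test with a library left out were added after seeing the data.

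Promoter windows are from RefSeq (GRCm38.p6), matched by symbol, and overlapping genes from GENCODE (GRCm38), which differ from the build of the counts, so no other coordinates are given. Motifs were searched on both strands. The members, gene lists and tests were chosen with earlier results of these data known. Named genes were all members, up to 3 called genes with the smallest p in a list, the 3 nearest profiles of the 2 members with the smallest p, and Foxn3 and Foxj1; others are marked in the text or serve as checks. One gene named under that rule is left out here. Figures were drawn with matplotlib 3.10.9.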

Additional observations from a re-analysis of the deposited data

How the results depend on the processing

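Myo7a, Whrn and Adgrv1 kept their direction and passed the threshold under all 8 alternative settings and with any 1 library left out. Over the 8 genes, the alternatives gave 61 results the same and 2 weaker, both Cib2, whose log2 fold change was 0.27 with total count scaling and 0.29 by DESeq2. With a library left out and tested, 28 were the same, 3 were weaker (Cib2) and 1 turned, Cdh23, which was 0.21 without Foxn3KO replicate 1. Of all genes, 3795 were called, 2437 by DESeq2, and 2323 to 5067 with a library left out (2328 without Foxn3KO replicate 1, 2323 without Foxn3KO replicate 2). The hair bundle list, with 2 calls, gave 0 to 4 (4 without wild-type replicate 1, 1 without Foxn3KO replicate 1); the cause was not tested. A fit that leaves 1 library in a group assumes that it varies like the other group.

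The difference between replicates 1 and 2 correlated at -0.0075 between the groups over all tested genes. A shift by replicate number shared in some genes only could go unseen in this value. In wild-type the difference between replicates also holds the one in sex-linked transcripts, and whether embryos were paired cannot be settled from it. With the replicate block, 4222 genes were called in all, and 4 of the 8 Usher genes. Depth limits Cdh23, Ush1c and Clrn1, whose intervals span changes as large as those of the called genes. Among marker lists, DESeq2 called 3 of the 7 lens genes, 1 amacrine and horizontal gene in place of 4 and no vessel gene in place of 1. DESeq2 also called fewer genes in general, 16% of those with an adjusted p against 21.9% of tested genes by edgeR. Median log2 fold changes without wild-type replicate 1 were -0.07 for progenitors, -0.03 for ganglion cells and 0.06 for vessels. With all libraries they were -0.05, 0.01 and 0.41.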
